A study of Mus musculus with 4 samples.

Results

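The myeloid C-type lectin receptors considered here are 10 genes: Clec4e, Clec4d, Clec4n, Clec7a, Clec5a, Clec4a1, Clec4a2, Clec4a3, Clec12a and Clec10a. Each was found by its symbol in the deposited table of read counts, as 10 of 44788 genes. The set was picked for the fall of Clec4e in the comparison described here, so the values of its members below are descriptions. No p-value of a member is printed. Members are only counted as passing a threshold or not, and nothing is read from these counts. RNA was sequenced from bone marrow stromal cells (BMSCs) of Setd2 fl/fl mice, strain C57BL/6J, at passage 2. Setd2 encodes the methyltransferase that trimethylates lysine 36 of histone H3. In 2 libraries the cells had received a lentivirus expressing GFP, the control, and in the other 2 a lentivirus expressing Cre, which recombines the floxed allele. Both groups carried the floxed allele and were kept for 4 days in puromycin at 2 µg/ml. Since the control virus carried no Cre, loss of Setd2 and the presence of Cre cannot be told apart. Nothing in the labels says whether a group's libraries are from different cultures or animals, so p-values measure their spread alone, and that spread may be technical.

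C-type lectin receptors are membrane proteins through which macrophages, dendritic cells and neutrophils bind sugars and lipids of microbes and of damaged host cells. Mincle (encoded by Clec4e), MCL (Clec4d) and dectin-2 (Clec4n) signal through the Fc receptor gamma chain Fcer1g, and dectin-1 (Clec7a) through an activation motif in its own tail. Both routes lead through the kinase Syk and the adaptor Card9 to NF-kappaB and cytokine genes, while DCIR (Clec4a2) and MICL (Clec12a) carry inhibitory motifs that recruit phosphatases. Mincle is known as a low-level receptor of resting macrophages that is induced on activation, and C/EBPbeta is a known activator of its gene.

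The sequence upstream of 3 members is shown first, because they lie in the same gene cluster and differed in the comparison. Clec4e and Clec4a1 were lower with Cre, while the values of Clec4d, the neighbour of Clec4e, overlapped between the groups. The sequences are those of RefSeq on GRCm38.p6, 250 bases up to the annotated transcription start, on the strand of the gene. Capitals mark matches on either strand to 3 motifs. GAGGAA is a core of the sites of the myeloid factor PU.1. Sites of the C/EBP factors were searched as TTNNGCAA. The element that binds the general initiation factor TBP was searched as TATAAA. The Clec4e sequence is chr6:123289872-123290121 on the minus strand, that of Clec4d is chr6:123261857-123262106 on the plus strand, and that of Clec4a1 is chr6:122921598-122921847 on the plus strand.
Clec4e: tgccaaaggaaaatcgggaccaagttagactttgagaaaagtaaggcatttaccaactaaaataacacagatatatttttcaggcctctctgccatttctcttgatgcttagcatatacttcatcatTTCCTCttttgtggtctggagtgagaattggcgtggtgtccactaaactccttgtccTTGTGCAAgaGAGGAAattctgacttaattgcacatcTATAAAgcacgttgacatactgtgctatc
Clec4d: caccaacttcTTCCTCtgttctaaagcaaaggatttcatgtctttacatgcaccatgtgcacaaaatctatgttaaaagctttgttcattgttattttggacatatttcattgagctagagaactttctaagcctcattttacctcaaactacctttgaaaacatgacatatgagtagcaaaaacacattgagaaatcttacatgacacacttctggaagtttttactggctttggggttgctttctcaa
Clec4a1: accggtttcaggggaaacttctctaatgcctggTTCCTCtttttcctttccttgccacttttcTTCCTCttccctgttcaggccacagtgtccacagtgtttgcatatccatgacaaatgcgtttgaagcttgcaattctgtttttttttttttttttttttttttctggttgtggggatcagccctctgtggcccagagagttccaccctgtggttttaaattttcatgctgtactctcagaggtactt

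Upstream sequence was found for 8 of the 10 members. Clec7a and Clec4a3 have more than 1 start in that table, which gives 10 windows in all. The windows of Clec7a overlap almost wholly and share their GAGGAA match, and those of Clec4a3 overlap in part. The 10 windows are thus not all separate sequences. GAGGAA occurred in 8 of the 10 windows, of 7 genes, and in 23.25% of 32851 RefSeq promoter windows of the same length. In Clec4a3 it was in 1 window and not in the other. In Clec4e it lay 123 and 56 bases before the start, in Clec4d 240 bases before it, and in Clec4a1 217 and 187 bases before it. TTNNGCAA occurred in 2 of the 10 windows, those of Clec4e (66 bases before the start) and Clec12a (140 bases), and in 9.56% of all windows. The Clec12a window, chr6:129349994-129350243 on the plus strand, lies after the first base of the annotated gene (129349783). Its matches are thus counted from a start farther inside the gene. TATAAA occurred in 3 of the 10 windows, at 29 bases before the start in Clec4e, 161 in Clec4a2 and 209 in Clec5a, and in 12.37% of all windows. TGANTCA, the AP-1 site, occurred in 1 of the 10 windows, that of Clec12a, against 6.75% of all windows. A NF-kappaB consensus was in 0 of the 10 windows and in 7.25% of all windows. No match overlapped a match to another of these motifs. These are matches of letters and say nothing of binding.

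The libraries held 12371994 to 14315903 counts, and values are given as counts per 1000000 (CPM) of the scaled library. The counts of Setd2 were 1400 and 1250 with GFP and 551 and 468 with Cre (log2 fold change -1.60, adjusted p = 3.65e-15 in edgeR's quasi-likelihood test with Benjamini-Hochberg adjustment). GFP replicate 2 stood apart in that 8.51% of its counts fell on 8 abundant noncoding, ribosomal and Lars2 genes, against 1.43% to 2.36% in the other libraries. Without this library 0 genes passed edgeR's adjusted p of 0.05, while 2197 had an unadjusted p under 0.05, and Setd2 itself had an adjusted p of 0.124. The cells carried stromal markers, such as collagen genes, at a summed level of 15592 to 20605 CPM. They also held macrophage RNA: 22 macrophage markers summed to 2600 and 2701 CPM in the GFP libraries and to 3035 and 3014 CPM in the Cre libraries. The labels do not say that macrophages were removed or sorted out.

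Clec4e, on chromosome 6 from 123281789 to 123289871 (GRCm38), encodes Mincle, the receptor for the mycobacterial cord factor. Its counts were 99 and 92 with GFP and 60 and 54 with Cre. In CPM these were 7.53 and 7.83 with GFP and 4.15 and 3.73 with Cre. Both Cre libraries lay below both GFP libraries, and the groups did not overlap. The mean was 7.68 ± 0.212 CPM (SD, n = 2) with GFP and 3.94 ± 0.297 CPM with Cre, 1.95-fold lower, with a log2 fold change of -0.96 (standard error 0.17). Of 14483 tested genes, 77 (0.532%) had a lower log2 fold change. In these bulk libraries, fewer cells that express a gene and less of its RNA per cell cannot be told apart.

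Clec4d, from 123262107 to 123275268 on chromosome 6, encodes MCL, which forms a receptor complex with Mincle and promotes its surface expression. It had 87.1 and 91.3 CPM with GFP and 95.1 and 88.8 CPM with Cre. The groups overlapped, and the log2 fold change was 0.04 (standard error 0.07). With 1072 to 1374 counts per library, it was the most deeply counted member. Clec4n, from 123229843 to 123247024, encodes dectin-2, a receptor for fungal mannans. Its level was 21.8 and 23.3 CPM with GFP and 27.1 and 25.4 CPM with Cre. Both Cre libraries lay above both GFP libraries, with a log2 fold change of 0.22 (standard error 0.09). Of the 3 receptors that share the Fcer1g chain, Clec4e thus had the lower values with Cre, Clec4n the higher ones and Clec4d overlapping ones.

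**Figure D1:**
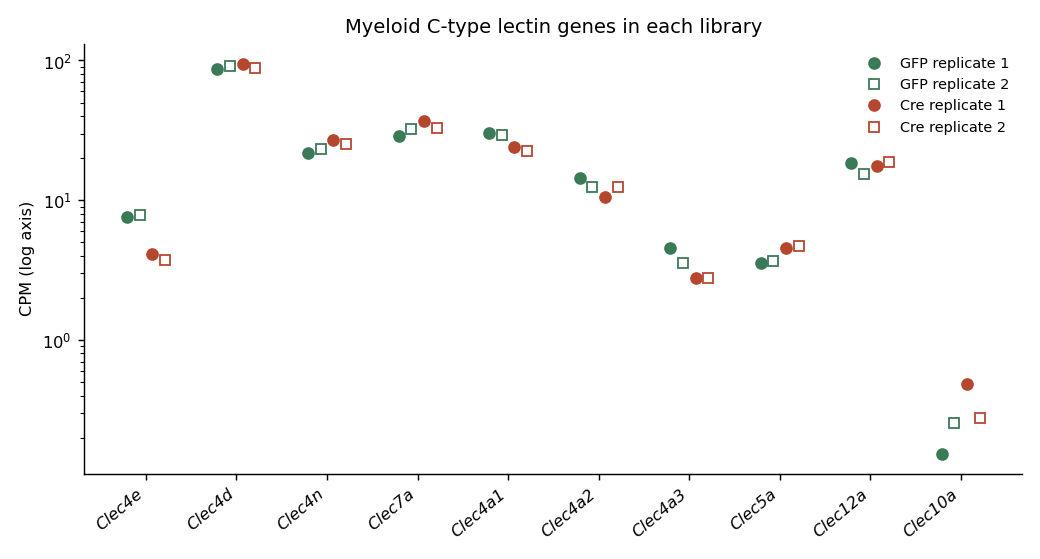
Level of the 10 lectin genes in each of the 4 libraries, in CPM on a log axis, 1 point per library. The Clec4e points of both Cre libraries (4.15 and 3.73 CPM) lie below those of both GFP libraries (7.53 and 7.83 CPM), while the Clec4d points lie between 87.1 and 95.1 CPM in all 4.

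Clec7a and Clec5a are activating receptors that signal by other routes. Clec7a, from 129461591 to 129472785 on chromosome 6, encodes dectin-1, the receptor for fungal beta-glucan. It had 28.6 and 32.4 CPM with GFP and 36.8 and 32.9 CPM with Cre. The Cre values were higher, but the lowest of them and the highest GFP value were close, and the log2 fold change was 0.19 (standard error 0.09). Clec5a, from 40574898 to 40585805 on chromosome 6, encodes MDL-1, which pairs with the adaptor DAP12. It had 47 and 43 counts with GFP and 66 and 68 with Cre, which are 3.58 and 3.66 CPM against 4.57 and 4.70 CPM. Both Cre libraries were above both GFP libraries (log2 fold change 0.36, standard error 0.20).

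The Clec4a genes encode receptors of the DCIR group. Clec4a1, from 122921848 to 122934619 on chromosome 6, was measured at 400 and 341 counts with GFP and 348 and 328 with Cre. Scaled to CPM, it had 30.4 and 29.0 with GFP and 24.1 and 22.7 with Cre. The Cre values were the lower ones without overlap, with means of 29.7 ± 0.993 and 23.4 ± 1.00 CPM (SD, n = 2) and a log2 fold change of -0.35 (standard error 0.09). Clec4a3, from 122952515 to 122969878, was scarcer, at 4.57 and 3.58 CPM with GFP and 2.77 and 2.76 CPM with Cre. Its Cre values were also lower without overlap (log2 fold change -0.56, standard error 0.22), on 40 to 60 counts per library. Clec4a2, from 123122690 to 123143999, encodes DCIR, which carries an inhibitory motif. It had 14.3 and 12.3 CPM with GFP and 10.6 and 12.5 CPM with Cre, which overlap (log2 fold change -0.21, standard error 0.13). Of its stretches of 40 bases, 8.51% also occur in other genes, Clec4a4 and Clec4b1 among them, so some of its reads may be uncertain.

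Clec12a, from 129349783 to 129365303 on chromosome 6, encodes MICL, an inhibitory receptor for uric acid crystals of dead cells. It had 18.3 and 15.3 CPM with GFP and 17.6 and 18.7 CPM with Cre, an overlap of the groups (log2 fold change 0.10, standard error 0.11). Clec10a, from 70166623 to 70170836 on chromosome 11, encodes MGL1, a receptor for galactose-type sugars of some macrophages and dendritic cells. It had 2 and 3 counts with GFP and 7 and 4 with Cre, too few to be tested. A count of 3 corresponds to 0.207 to 0.255 CPM in these libraries. Of its stretches of 40 bases, 11.8% occur in other genes, including its close relative Mgl2, which had 1 count in all 4 libraries together.

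Of the 10 members, 9 passed the filter on low counts, which Clec10a missed. In the fit over all genes, an adjusted p under 0.05 in edgeR was reached by 2 of the 9, Clec4e and Clec4a1, both lower with Cre, and by 0 members higher with Cre. Over all tested genes 6.97% reached it, 3.22% lower and 3.74% higher. The groups did not overlap for 6 of the 9 members and for 50.0% of all tested genes. Log2 fold changes were above 0 for 5 members and below 0 for 4, with a median of 0.04 over the 9 and of -0.00447 over all tested genes. The members were selected on this contrast, so nothing is read from these counts. Without GFP replicate 2, the log2 fold change of Clec4e was -0.93.

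**Figure D2:**
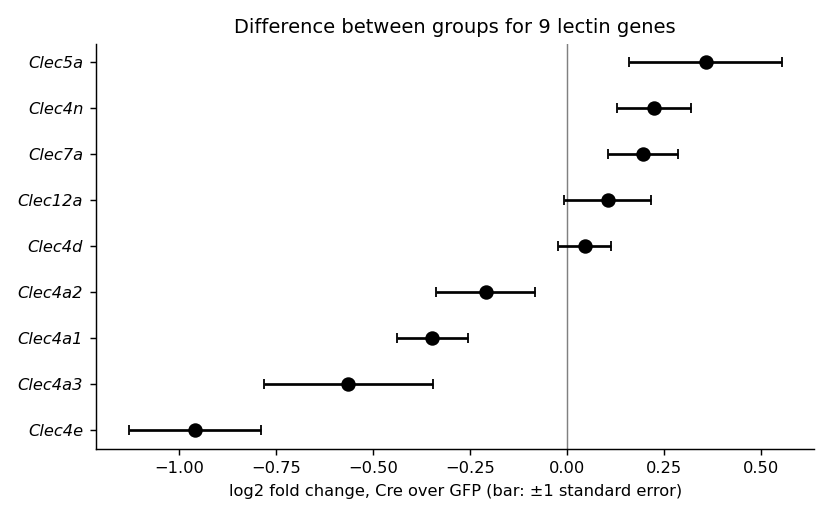
Log2 fold change of Cre over GFP for the 9 tested lectin genes, 1 point per gene, with bars of 1 standard error. Clec4e (-0.96) lies farthest from 0, and the members range up to 0.36 for Clec5a.

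Of the members, 6 lie in a run of 9 lectin genes on chromosome 6 that spans 368.0 kb from Clec4a1 to Clec4e. Clec4d and Clec4e are transcribed toward each other, and their annotated ends are 6520 bases apart. At the far end of the run, Clec4a1 starts 368.02 kb and Clec4a3 337.36 kb before the start of Clec4e, and these 2 had lower values with Cre as Clec4e did. Between them and Clec4e, the log2 fold changes were -0.21 for Clec4a2, 0.22 for Clec4n and 0.04 for Clec4d. Along the run, Clec4a1, Clec4a3 and Clec4a2 were thus below 0, Clec4n and Clec4d above 0 and Clec4e below 0. Clec4d was above 0 by less than its standard error (0.07). A part of gene position in these values was not tested. The remaining genes of the run, Clec4a4, Clec4b1 and Clec4b2, had at most 2 counts in any library. No member shares exon bases with another gene of the GENCODE M21 annotation, on either strand; the annotation used for the counts is not stated.

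**Figure D3:**
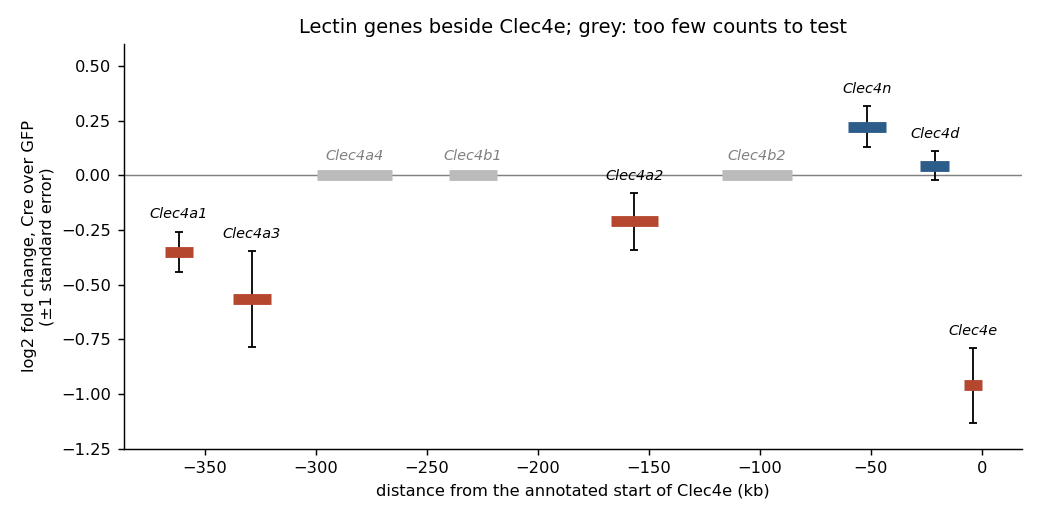
Lectin genes beside Clec4e, placed by distance from its annotated start in kb and by log2 fold change of Cre over GFP with bars of 1 standard error; red genes are below 0, blue genes above 0, and grey genes had too few counts. Clec4d and Clec4n, the nearest neighbours, are above 0 (0.04 and 0.22), and Clec4e is at -0.96.

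Read per kilobase of the longest coding transcript, which allows levels to be compared between genes, Clec4d was the highest member at a mean of 68.5 CPM per kb over the 4 libraries. Clec4n (19.9 CPM per kb), Clec4a1 (17.0) and Clec7a (14.4) followed, and neighbours in this order overlapped when both groups were pooled. Within groups, Clec4n was above Clec4a1 in both Cre libraries, and Clec4a1 above Clec7a in both GFP libraries. Clec12a had 6.99 and Clec4a2 5.01 CPM per kb. Clec4a3 (2.63 CPM per kb) and Clec4e (2.31) overlapped with groups pooled, though Clec4a3 was above Clec4e in both Cre libraries. Clec5a (1.10) and Clec10a (0.125) were lowest, each apart from its neighbour. Clec4e had 3.05 ± 0.0842 CPM per kb with GFP and 1.57 ± 0.118 with Cre (SD, n = 2). The RNA of Mincle was thus scarce beside that of its partner MCL in both groups.

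Set against other genes of the same libraries, the level of Clec4e was described by 3 ratios, which all rest on its same 4 counts and so restate the difference for which it was picked. Per 100 counts of Clec4d there were 8.65 and 8.58 counts of Clec4e in the GFP libraries and 4.37 and 4.20 in the Cre libraries. Per 100 counts of Clec4n there were 34.6 and 33.6 with GFP and 15.3 and 14.7 with Cre. Per 1000 counts of the macrophage markers there were 2.90 and 2.90 with GFP and 1.37 and 1.24 with Cre. The Cre values of each ratio lay below the GFP values. Without Lyz2, which gives much of the marker sum, the last ratio was 6.22 and 6.06 with GFP and 3.08 and 2.83 with Cre. Clec4e made up 3.48% (95% Wilson interval 2.87% to 4.22%) and 3.58% (2.92% to 4.37%) of the counts of all 10 members with GFP. With Cre it made up 1.86% (1.45% to 2.39%) and 1.76% (1.35% to 2.28%), and these intervals cover counting error only. The members together summed to 216 and 219 CPM with GFP and to 223 and 212 CPM with Cre, which overlap, and Clec4d held 40.3% to 42.6% of their counts in every library.

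**Figure D4:**
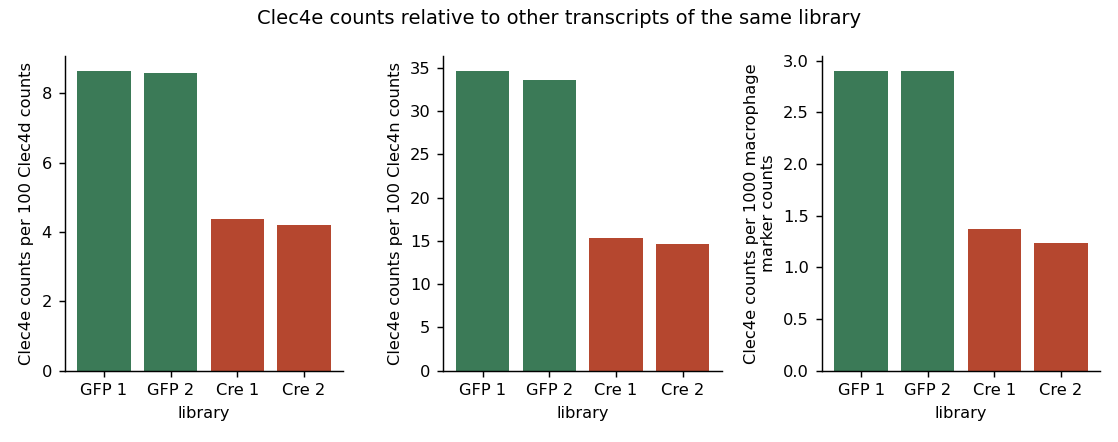
Clec4e counts in each library relative to 100 counts of Clec4d, 100 counts of Clec4n and 1000 counts of the macrophage markers; bars start at 0. Both Cre bars are lower than both GFP bars in each panel (for Clec4d, 4.37 and 4.20 against 8.65 and 8.58).

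Scaling by the summed macrophage markers instead of all genes gave a log2 fold change of -1.15 for Clec4e, and the stromal sum one of -1.32. These scalings moved the median of all tested genes to -0.20 and -0.36. Such a scaling shifts all genes almost alike, so the place of a gene relative to the median is fixed and is no check. Without Lyz2 in the macrophage sum Clec4e was at -1.05 and the median at -0.098. Over all 16 alternatives of scaling, testing or leaving out libraries, these included, Clec4e lay between -1.32 and -0.89, Clec4a1 between -0.71 and -0.31, Clec4a2 between -0.57 and -0.09 and Clec4a3 between -0.92 and -0.37. These 4 were below 0 in all 16. All alternatives reuse the same 4 libraries, and the marker scalings shift genes downward as a whole. The count of signs is thus a description and adds no support. Clec4n, Clec7a and Clec5a were above 0 in 15 of 16. They were below 0 only when the stromal marker sum set the scale (-0.14, -0.16 and -0.00137), which shifted the median to -0.36. The macrophage marker sum as scale, with its median of -0.20, left Clec4n at 0.03, Clec7a at 0.0028 and Clec5a at 0.16. Clec4d and Clec12a changed sign among the 16 (13 above and 3 below 0 for each). For Clec4d the 3 below 0 were the marker scalings.

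Genes whose level over the 4 libraries was most like that of Clec4e were sought among 10410 genes with a mean of at least 5 CPM, by the distance between their log2 CPM values centred on each gene's own mean. The nearest was Adamts9, an extracellular protease (distance 0.0647, log2 fold change -0.89). Grem1, a BMP antagonist (0.0851, -0.94), and Ifit1, an interferon-induced gene (0.119, -0.90), came next, followed by Pcdh18 (0.173, -0.77) and Timp3 (0.182, -0.78). None of the 5 is a lectin gene. For Clec4d the nearest were Trak2 (distance 0.00922), Limd1 (0.0104), Brpf1 (0.0108), Fam115a (0.0121) and Stk38l (0.0150). With 4 libraries, such a likeness is a description of 4 values.

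The further genes of the pathway were taken from lists and tested with edgeR over all genes. The libraries are bulk, and many of these genes are not limited to cells that carry the lectins. Their values, here and in the lists below, thus cannot be assigned to those cells rather than to the stromal cells. Among 18 tested adaptors and signalling genes, 1 rose and 2 fell. Tyrobp, which encodes DAP12, the adaptor of Clec5a, rose from 58.4 ± 3.61 to 69.5 ± 0.570 CPM (SD, n = 2; log2 fold change 0.25, edgeR adjusted p = 0.0291). Malt1, the paracaspase that acts with Card9 and Bcl10, fell from 9.48 ± 0.157 to 6.19 ± 1.23 CPM (log2 fold change -0.61, edgeR adjusted p = 0.0122). Map3k7, the kinase TAK1 upstream of NF-kappaB, fell from 102 ± 2.39 to 87.5 ± 0.749 CPM (log2 fold change -0.23, edgeR adjusted p = 0.0301), a call lost with the replicate number as a block (edgeR adjusted p = 0.0524). The first steps below Mincle did not pass: Fcer1g went from 44.4 to 46.3 CPM (log2 fold change 0.06, edgeR adjusted p = 0.713). Syk went from 76.0 to 84.8 CPM (0.16, edgeR adjusted p = 0.167) and Card9 from 3.67 to 3.73 CPM (0.02, edgeR adjusted p = 0.979). The median over the 18 was 0.03. In DESeq2 0 of the 18 passed, with 4 at an unadjusted p under 0.05, and with library size alone as the scale edgeR passed 0, with 6 at an unadjusted p under 0.05.

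Of 4 phosphatases, among them those recruited by inhibitory receptors, 0 passed in edgeR, and 1 had an unadjusted p under 0.05 there and in DESeq2. Ptpn6, which encodes SHP-1, had a log2 fold change of 0.06 (edgeR adjusted p = 0.759) and Inpp5d, which encodes SHIP-1, one of 0.10 (edgeR adjusted p = 0.588). Among 13 transcription factors of the response, Nfkb1 fell from 92.7 ± 3.49 to 76.6 ± 4.04 CPM (SD, n = 2; log2 fold change -0.28, edgeR adjusted p = 0.0109) and the other 12 did not pass. Cebpb, the known activator of Clec4e, had a log2 fold change of -0.04 (edgeR adjusted p = 0.848), and Spi1, which encodes PU.1, one of 0.25 (edgeR adjusted p = 0.0993). Among 13 tested target genes of the pathway, Ptgs2, the cyclooxygenase COX-2, rose from 221 ± 5.91 to 255 ± 15.1 CPM (SD, n = 2; 0.21, edgeR adjusted p = 0.0478), the only one to pass. With the replicate number as a block it did not (edgeR adjusted p = 0.0823). With library size alone and in DESeq2, 0 of the transcription factors passed, 4 and 2 of them having an unadjusted p under 0.05. For the targets the counts were 0, with 5 and 2 at that unadjusted p.

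The list of endogenous ligands and related genes had a median log2 fold change of 0.24 over 7 tested genes. Anxa1, which encodes annexin A1, a reported ligand of dectin-1, rose from 1160 ± 71.0 to 1494 ± 26.1 CPM (SD, n = 2; log2 fold change 0.36, edgeR adjusted p = 0.000337). Anxa5 (log2 fold change 0.35, edgeR adjusted p = 0.000459) and Vim, the vimentin gene (0.24, edgeR adjusted p = 0.00731), also rose. Sap130 encodes a Sin3A-associated protein and not the splicing factor of the same protein name that Mincle binds, so it is no ligand gene although the list and its median include it. It went from 61.2 to 64.7 CPM (0.08, edgeR adjusted p = 0.573).

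Markers of other cells were read beside the lectins. Of 20 tested macrophage markers, 4 rose and 1 fell, with a median log2 fold change of 0.15. Lyz2 (0.27), Cd68 (0.30), the mannose receptor gene Mrc1 (0.42) and the complement gene C1qb (0.31) rose. Emr1, which encodes F4/80, fell from 196 ± 5.62 to 160 ± 0.640 CPM (SD, n = 2; log2 fold change -0.30, edgeR adjusted p = 0.00293). Csf1r (0.16, edgeR adjusted p = 0.213), Cd14 (0.31, edgeR adjusted p = 0.0646) and Ptprc (-0.08, edgeR adjusted p = 0.655) did not pass. The marker sum was thus higher, and the level of Clec4e lower, in both Cre libraries. Much of that sum was Lyz2. Without Lyz2 the groups lay closer, at 1212 and 1292 CPM with GFP and 1350 and 1317 CPM with Cre. The stromal marker sum was also higher with Cre, at 19573 and 20605 CPM against 15738 and 15592 CPM with GFP. Most of that sum was Col1a1, which rose from 6896 to 9901 CPM, and Col1a2, which rose from 7116 to 8681 CPM. Of the 13 stromal markers 4 rose and 1, Cxcl12, fell (-0.28), 7 had log2 fold changes below 0, and the median was -0.05. The part of either in the values of the lectins was not tested, and the scalings given above cannot show it.

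Markers of neutrophils and dendritic cells, which also express many of these lectins, were low. The 12 neutrophil markers summed to 15.5 to 20.4 CPM, with ranges that overlap between the groups, and 4 of them, S100a9, Elane, Retnlg and Cxcr2, were at 0 in all libraries. Of the 4 tested, 0 passed in edgeR and 0 had an unadjusted p under 0.05, there and in DESeq2. S100a8 had 25 and 32 counts with GFP and 35 and 30 with Cre. The 10 dendritic cell markers summed to 13.3 to 14.5 CPM, and Flt3 had 1 count in all. Mast cell and erythroid markers were too low for any gene to be tested.

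**Figure D5:**
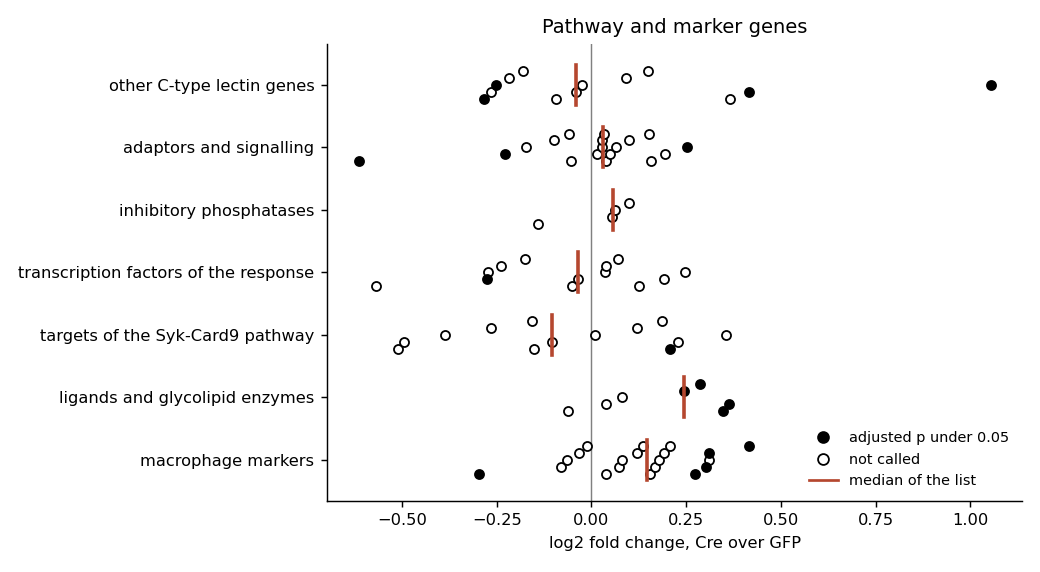
Log2 fold change of Cre over GFP for the tested genes of the pathway and marker lists, 1 point per gene; filled points passed an adjusted p of 0.05 and the red line is the list's median. The ligands lie highest of the pathway lists (median 0.24), while adaptors and signalling genes centre near 0 (median 0.03).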

How the data were processed

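Each library was prepared from 1 µg of RNA with a TruSeq kit of Illumina, per the labels' protocols. The submitters' processing notes name HISAT2 and GRCm38. Which counting program, annotation and strand setting were used is not given in the sources used here. The deposited table holds whole-number counts per gene, without normalization.

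edgeR 4.0.16 (R 4.3.3) was run on the counts. filterByExpr (minimum count 10, minimum total 15) kept 14483 genes, scaled by TMM. The quasi-likelihood F-test had group as its only term, with Benjamini-Hochberg adjustment over all tested genes and a threshold of 0.05. CPM use TMM-scaled library sizes, and the distances of log2 CPM a prior count of 2. A median chi-square relative to counting noise was taken for each pair of libraries, over genes with at least 400 counts. This ratio was 4.56 for the GFP pair and 1.93 for the Cre pair. GFP replicate 1 with Cre replicate 1 had 3.79, less than the GFP pair, and the remaining pairs across groups had 5.16 to 7.20. TMM factors were 1.03 and 0.951 in the GFP libraries and 1.01 in both Cre libraries. How much of the GFP ratio came from this difference in scale was not tested. The fit was checked on simulated data.

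The members and gene lists were chosen with earlier results of these data known. All 10 members are named, with Setd2, the called genes of each list but some stromal markers, a fixed set of further list genes and the 5 nearest to Clec4e and to Clec4d. Of these called genes, 1 is not reported here. Positions and upstream sequences are those of RefSeq on GRCm38.p6, and transcript lengths those of GENCODE M21. Alternatives were median-of-ratios scaling, library size alone, DESeq2 1.42.0, limma-voom 3.58.1, other low-count filters, a replicate block, robust dispersion, removal of abundant noncoding RNA, marker sums as library size and leaving out each library. Scaling by macrophage markers without Lyz2 was added after seeing the data.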

Additional observations from a re-analysis of the deposited data

How the results depend on the processing

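In all, 1009 genes passed, 2 of them members (Clec4e and Clec4a1). Scaling by library size alone gave 530 genes and 1 member, DESeq2 376 and 1, and no low-count filter 30 and 0, with 2762 genes at an unadjusted p under 0.05 in edgeR. Leaving out 1 library gave 0 to 516 genes and 0 to 1 members. The lowest count came without GFP replicate 2 and the next, 12, without GFP replicate 1. Without Cre replicate 1 it was 516 and without Cre replicate 2 it was 373. Where 1 library is left in a group, the fit takes its spread from the other group. The replicate block gave 829 genes and 2 members (Clec4e -0.96, Clec4a1 -0.35), and the calls of Map3k7 and Ptgs2 were lost under it. Same-numbered libraries did not deviate together (correlation -0.0410 over 10900 genes). A small shared deviation could go unseen in this correlation, so it cannot tell whether the numbers pair the libraries. Of 533 alternative values of 41 other named genes, 123 lost a call, 2 gained one (Cd14) and 13 changed sign, all of genes without a call. Left-out libraries took Fcer1g from -0.0172 to 0.146 (below 0 without Cre replicate 2), Card9 from -0.18 to 0.24 (below 0 without GFP replicate 2, -0.16, or Cre replicate 2), Inpp5d from -0.00956 to 0.21 (below 0 without Cre replicate 1) and Cebpb from -0.128 to 0.0703 (above 0 without GFP replicate 1 or Cre replicate 1, 0.0573). They took Clec11a from -0.136 to 0.0745 (above 0 without GFP replicate 1), Ptprc from -0.186 to 0.0221 (above 0 without Cre replicate 2), Colec12 from -0.0466 to 0.000196 (above 0 without Cre replicate 1) and S100a8 from -0.28 to 0.24 (above 0 without GFP replicate 2 or Cre replicate 2, 0.0787). Library size alone gave 0.0063 for Colec12 and 0.0038 for S100a8. Depth limits Clec10a most, at 2 to 7 counts. The causes of these shifts were not tested.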

Other observations

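Among 53 further genes with a C-type lectin domain, most had few or no reads: 14 had 0 counts in all 4 libraries and 32 had at most 5 counts in all. Of the 13 that could be tested, 2 rose and 2 fell, and the median log2 fold change was -0.04. Mrc1, the macrophage mannose receptor gene, had 32.1 ± 1.14 CPM with GFP and rose to 42.9 ± 4.20 with Cre (SD, n = 2; log2 fold change 0.42, edgeR adjusted p = 0.00233). Colec10, which encodes a secreted collectin, rose from 2.20 ± 0.223 to 4.60 ± 1.42 CPM (1.05, edgeR adjusted p = 0.00589), with 31 and 24 counts against 81 and 52. Ly75, which encodes the endocytic receptor DEC-205, fell from 78.8 ± 1.70 to 64.7 ± 1.41 CPM (-0.28, edgeR adjusted p = 0.00979). Thbd, the thrombomodulin gene, fell from 102 ± 4.38 to 85.9 ± 0.506 CPM (-0.25, edgeR adjusted p = 0.0157). With library size alone as the scale neither of these falls passed. In DESeq2 Mrc1 alone of the 4 passed (adjusted p = 0.0320, against 0.133 for Colec10, 0.0823 for Ly75 and 0.0957 for Thbd). Without Cre replicate 1, Colec10 had a log2 fold change of 0.71 and Mrc1 one of 0.32. Calls among the 4 were lost when Cre replicate 1 or Cre replicate 2 was left out. Without either GFP library none of the 4 passed.

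The other tested genes of the list did not pass, among them these 4. Mrc2, which encodes the collagen receptor Endo180, went from 289 to 308 CPM (0.09, edgeR adjusted p = 0.458) and the scavenger receptor gene Colec12 from 137 to 135 CPM (-0.03, edgeR adjusted p = 0.868). Cd302 went from 31.3 to 34.8 CPM (0.15, edgeR adjusted p = 0.361) and Clec11a, which encodes an osteogenic growth factor of bone marrow stroma, from 7.44 to 7.26 CPM (-0.04, edgeR adjusted p = 0.921). Outside the lectins, the osteoclast enzyme gene Acp5 fell (-0.45, edgeR adjusted p = 0.00653) and Cd4 rose from 5.17 to 8.71 CPM (0.75, edgeR adjusted p = 0.00270), while 5 of the 8 T and NK cell markers were at 0 in all libraries. In DESeq2 neither Acp5 nor Cd4 passed (adjusted p = 0.122 and 0.0974).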
